A study of Caenorhabditis elegans with 2 samples.

Results

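The mir-51 family of Caenorhabditis elegans consists of 6 microRNA genes, cel-mir-51 to cel-mir-56, out of 261 annotated microRNA genes. They are described here at the sites where a tagged transcription factor was recovered with chromatin. The genes were chosen by name from the Ensembl WBcel235 annotation, with earlier values of these data in view: the family was selected on the authors' signal values, which are highest at cel-mir-51 among microRNA genes. These values are therefore given as a description and were not tested. The window taken for each gene ran from 2000 bp upstream of the 5′ end of its annotated hairpin to 500 bp downstream of the 3′ end, and a region counted when it shared at least 1 bp with that window. In these windows lay 4 of the 912 regions of the authors' optimal list.

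The samples formed a single group with 2 biological replicates. They were whole hermaphrodite late embryos of the transgenic strain RW10702, taken 3.5 hours after synchronization by egg bleaching, in which HLH-6 carries a C-terminal tag of GFP and FLAG. Chromatin bound by the tagged factor was pulled down through GFP and sequenced (ChIP-seq). The sample is the whole animal, so the cells behind a region cannot be told apart. All worms carry the tagged factor, and the control experiment that the labels name was not analysed here, so signal that any tagged factor or the antibody would give cannot be told apart from signal of HLH-6. Each region is reported with the authors' signal value, a score whose scale is not given in the sources used here, and with its rank by that score within its own list. Read counts were not used here, so the depth is unknown. The optimal list equals the 912 strongest regions of the authors' pooled list of 30000, and the 2 replicate lists also hold 30000 regions each, most of them weak.

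MicroRNAs are short RNAs cut from hairpin precursors. They repress messenger RNAs mainly through pairing of the seed, the bases near their 5′ end, so genes with the same seed form a family with overlapping targets. Loss of the whole mir-51 family in the worm is lethal in embryos, with a pharynx that fails to stay attached to the mouth, whereas loss of single members is tolerated. HLH-6 is a basic helix-loop-helix (bHLH) factor that drives gene expression in pharyngeal gland cells, and bHLH proteins as a class recognise the E-box, CANNTG.

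The members share their seed but not their arrangement in the genome. The annotated mature strands that carry the shared seed are shown because the seed defines the family. They are written 5′ to 3′ from the NCBI WBcel235 genome at the RefSeq coordinates, with bases 2 to 8 in capitals.
cel-mir-51: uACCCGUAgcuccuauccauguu
cel-mir-52: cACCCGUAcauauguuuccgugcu
cel-mir-53: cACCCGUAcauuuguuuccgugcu
cel-mir-54: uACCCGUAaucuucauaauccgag
cel-mir-55: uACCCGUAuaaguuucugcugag
cel-mir-56: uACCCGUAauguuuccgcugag

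The seed ACCCGUA sits in the 5′ arm of the hairpin in the 3 genes on chromosome IV and in the 3′ arm in the 3 genes on X. The strands of cel-mir-52 and cel-mir-53 are identical at 23 of 24 positions counted from the 5′ end. The other pairs are identical at 9 to 14 positions, of 22 to 24 compared. These counts include the seed and allow no gaps, so likeness shifted by a base is missed. The 3′ ends of cel-mir-55 and cel-mir-56, for example, are alike in the strands printed above.

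The 6 genes lie at 3 loci. cel-mir-51 (chromosome IV, 11026013 to 11026112, minus strand) and cel-mir-53 (11027593 to 11027691, minus strand) are neighbours with 1480 bp between their hairpins. cel-mir-52 (14034008 to 14034107, plus strand) lies apart from them on the same chromosome, with 82 piRNA genes within 10 kb, whereas the other 5 members have 0. cel-mir-54 (X, 13144996 to 13145094), cel-mir-55 (13144827 to 13144924) and cel-mir-56 (13144691 to 13144787), all on the minus strand, form a cluster of 404 bp. That cluster lies in an intron of the protein-coding gene F09A5.3, which runs on the plus strand, and the annotation places a further microRNA gene, cel-mir-55b, on the plus strand across from cel-mir-55. Neighbours share windows, so that a region can count for several members, and the 6 genes give 4 distinct optimal regions.

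Of the 6 members, 5 had an optimal region in the window: cel-mir-51 and cel-mir-52 had 1 each, and cel-mir-54, cel-mir-55 and cel-mir-56 shared 2. In the same window, 12 of 255 microRNA genes outside the family had one (4.71%), as did 1142 of 19973 protein-coding genes (5.72%), whose windows also hold the whole gene body. The family was chosen with this contrast known, and nothing is read from the difference. Without cel-mir-55b, which shares its regions with the X cluster and was set aside after the values were seen, the other microRNA genes gave 11 of 254 (4.33%). cel-mir-53 was the member with no optimal region.

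**Figure D1:**
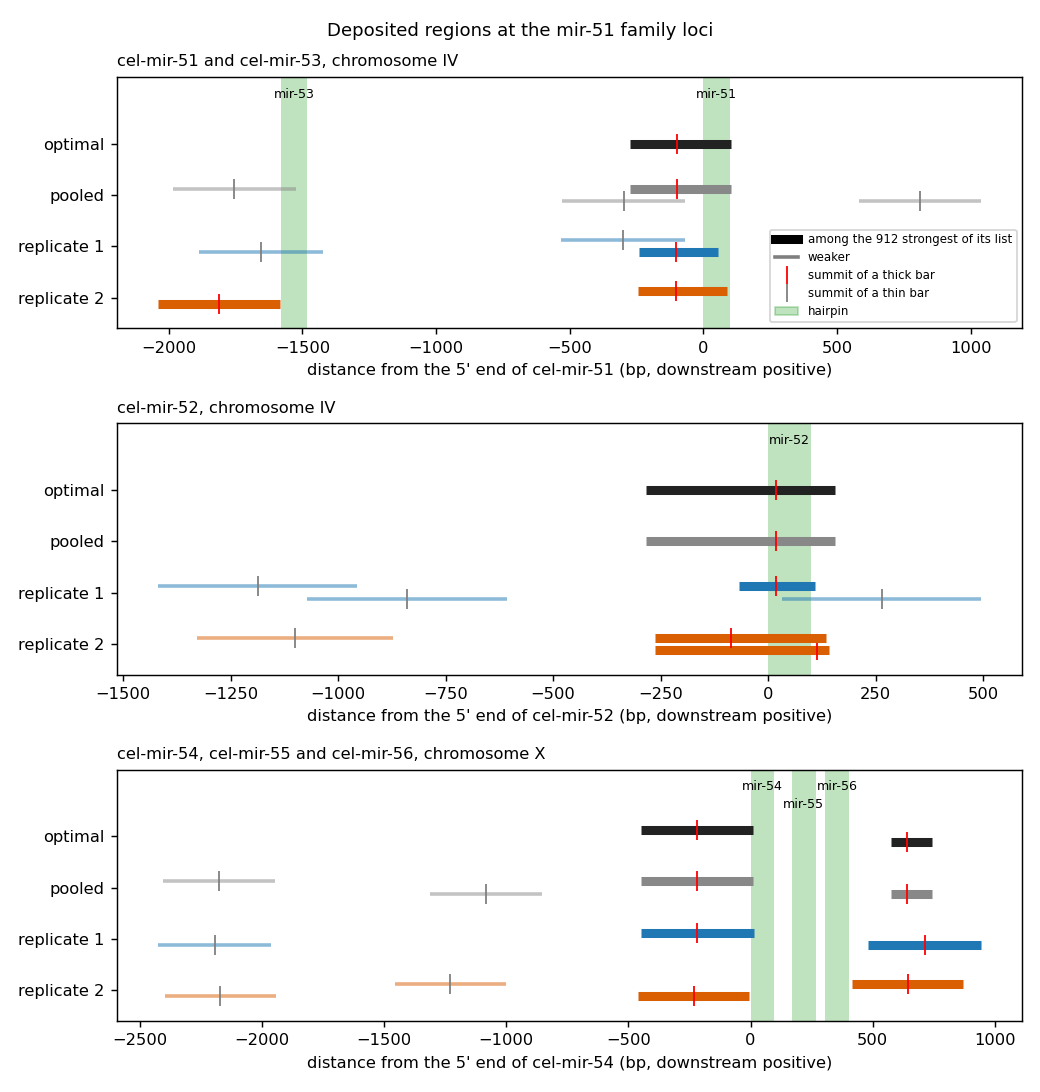
Regions of the 4 lists at the 3 loci, drawn by distance in bp from the 5′ end of the first gene named in each panel. Thick bars are regions among the 912 strongest of their list, thin bars weaker ones, ticks summits and green bands hairpins. The strong regions at cel-mir-51 and cel-mir-52 cover or touch the hairpin. On X the summits of the strong regions lie on either side of the cluster. The region on the cel-mir-54 side reaches into the cel-mir-54 hairpin in every list except replicate 2. At cel-mir-53 a strong bar is drawn in the replicate 2 list and in no other.

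The sequence around each summit follows, 50 bases to either side, because the summits carry the results. Each is written 5′ to 3′ on the strand of the member, from the NCBI WBcel235 genome, whose coordinates are those of ce11. Capitals mark matches on either strand to the E-box, to the GA repeat GAGAGA and to the repeat of CA, which is CACACA.
cel-mir-51, chrIV:11026161-11026261, minus strand: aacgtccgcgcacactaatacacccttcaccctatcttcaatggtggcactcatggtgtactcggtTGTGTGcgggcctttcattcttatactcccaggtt
cel-mir-52, chrIV:14033977-14034077, plus strand: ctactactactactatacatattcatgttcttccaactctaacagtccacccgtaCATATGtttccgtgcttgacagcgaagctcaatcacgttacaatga
cel-mir-53, chrIV:11027817-11027917, minus strand: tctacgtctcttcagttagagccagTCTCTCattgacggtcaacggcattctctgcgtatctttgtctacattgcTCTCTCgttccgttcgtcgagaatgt
cel-mir-54 side of the X cluster, chrX:13145262-13145362, minus strand: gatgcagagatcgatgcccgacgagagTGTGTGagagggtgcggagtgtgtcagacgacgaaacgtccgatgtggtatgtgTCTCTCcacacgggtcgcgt
cel-mir-56 side of the X cluster, chrX:13144404-13144504, minus strand: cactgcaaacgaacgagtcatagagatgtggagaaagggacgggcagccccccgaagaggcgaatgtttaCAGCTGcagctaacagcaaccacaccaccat

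The strongest region of the family had its summit directly upstream of cel-mir-51. It spanned chromosome IV 11026009 to 11026385, 377 bp that include the whole hairpin, with a signal value of 528 and rank 8 of the 912 optimal regions. In replicate 1 the region at this site had a value of 267 (rank 5 of 30000), and in replicate 2 a value of 255 (rank 9). Both replicates thus placed it among their 10 strongest regions, and its value was 5.90 times the value at rank 912 in replicate 1 and 5.43 times that in replicate 2. The optimal summit, at 11026211, was 99 bp upstream of the hairpin, and the replicate summits were 101 and 102 bp upstream. It falls inside F36H1.17 (11026131 to 11026219), a gene annotated as ncRNA on the strand of cel-mir-51. The nearest start site of a coding gene was that of hrg-5, 2974 bp away. The summit lay on the downstream side of that start site, outside hrg-5 itself.

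The second strongest region of the family covered the cel-mir-52 hairpin itself. It spanned 14033724 to 14034163 on chromosome IV with a signal value of 271 and rank 39. Its summit, at 14034027, lay 19 bp inside the hairpin, where an ncRNA gene is also annotated on the opposite strand (14033942 to 14034090). The region also overlaps an ncRNA gene on the strand of cel-mir-52 (14033557 to 14034004) and another on the opposite strand (14033569 to 14033866). Neither of these contains the optimal summit. Replicate 1 had a narrow region of 178 bp here with a value of 117 (rank 68) and its summit on the same base. Replicate 2 had 2 overlapping regions among its 912 strongest, with values of 160.4 (rank 25) and 82.9 (rank 145). Their summits lay 85 bp upstream and 114 bp downstream of the hairpin's 5′ end, 199 bp apart, on either side of the optimal summit. The summit position was thus less alike between the replicates than at cel-mir-51. The stronger replicate 2 summit, at 14033923, was 104 bp from that of replicate 1. It falls inside the ncRNA gene on the strand of cel-mir-52, so the replicates placed their strongest summits in different annotated genes. The value at cel-mir-51 was 1.95 times that at cel-mir-52 in the optimal list, 2.28 times in replicate 1 and 1.59 times in replicate 2. The nearest coding start site, that of Y37A1B.7, was 9753 bp away, with the optimal summit on its downstream side and outside that gene.

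The cluster on X had an optimal summit on each side, and no optimal summit lay between the hairpins. The region on the cel-mir-54 side, with its summit upstream of the cluster, spanned 13145082 to 13145541 with a signal value of 128 (rank 264). It included 13 bases of the cel-mir-54 hairpin. Its values were 61.9 in replicate 1 (rank 315) and 66.2 in replicate 2 (rank 274). The region overlaps an ncRNA gene, F09A5.11 (13145213 to 13145271, minus strand). The summit was 218 bp upstream of the cel-mir-54 hairpin in the optimal list and in replicate 1, and 233 bp upstream in replicate 2. The region on the cel-mir-56 side, downstream of the cluster, spanned 13144352 to 13144517 with a signal value of 110.2 (rank 378), and had values of 59.4 in replicate 1 (rank 363) and 57.5 in replicate 2 (rank 418). Its summit was 237 bp past the 3′ end of cel-mir-56, 310 bp past it in replicate 1 and 240 bp past it in replicate 2. The 2 optimal summits were 858 bp apart, and both lay in an intron of F09A5.3, 3711 and 2853 bp from its start site. All 4 replicate values on X were between 1.22 and 1.41 times the value at rank 912, far closer to it than those at cel-mir-51.

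cel-mir-53 fell just below the optimal list. Its only pooled region spanned 11027637 to 11028096 on chromosome IV, with its summit 176 bp upstream of the hairpin, a signal value of 81.7 and rank 1084 of 30000. The weakest optimal region has 85.6. The replicates differed here: the value was 32.9 in replicate 1 (rank 2954) and 48.2 in replicate 2 (rank 816), and the summits were 156 bp apart. The region was thus among the 912 strongest of replicate 2 and not of replicate 1, where its value was 0.727 times the value at rank 912. This region also falls in the window of cel-mir-51, 1755 bp upstream of that gene. Its nearest coding start site was again that of hrg-5, at 1318 bp, with the pooled summit on the downstream side and outside hrg-5.

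**Figure D2:**
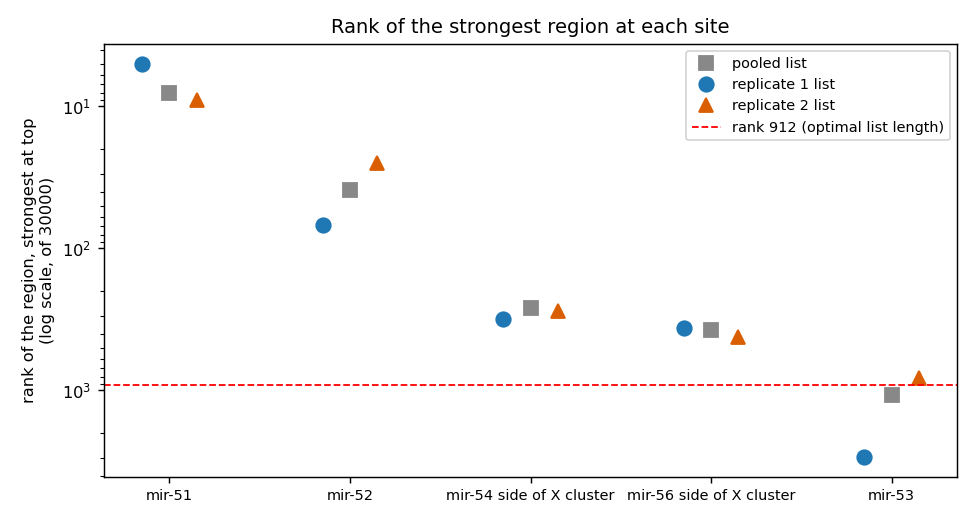
Rank of the strongest region at each of the 5 sites in the pooled list and the 2 replicate lists, on a log axis with the strongest rank at the top. The dashed line marks rank 912, the length of the optimal list. At cel-mir-51, cel-mir-52 and both sides of the X cluster all 3 marks lie above the line, and at cel-mir-53 the mark of replicate 2 (816) alone does.

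Counted by replicate, 5 of the 6 members had a region among the 912 strongest of replicate 1, against 9 of 255 other microRNA genes (3.53%). In replicate 2 all 6 members did, against 10 of 255 (3.92%). These lists are not independent of the values on which the family was chosen. In the full pooled list all 6 members had a region, and so did 168 of 255 other microRNA genes (65.9%), so that presence in that list separates little. Apart from the region at cel-mir-53, weaker pooled regions in the family's windows had values from 23.4 to 40.5 and ranks from 10096 to 28465.

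The surroundings of the members' regions were described by their distance from tRNA, snoRNA and snRNA genes, a comparison chosen after the values were seen. Genes annotated as piRNA or ncRNA were not among these classes, and 82 piRNA genes lie within 10 kb of cel-mir-52. The summits of the 5 sites were 20151 to 56936 bp from the nearest annotated tRNA, snoRNA or snRNA gene. Among the 689 optimal regions with a summit over 200 bp from any such gene, the region at cel-mir-51 ranked 3, that at cel-mir-52 ranked 8, and those at the X cluster ranked 122 and 204. Within 10 kb of cel-mir-52 the pooled list had 1 summit, the strong one, where the genome's mean density gives 6.01. cel-mir-51 and cel-mir-53 each had 5, and the X members had 8 or 9. The median over other microRNA genes was 6. The order of the loci differed between the lists. Within 10 kb, replicate 1 had 8 or 9 summits at the X members, 4 at cel-mir-52 and 3 at cel-mir-51 and cel-mir-53, and replicate 2 had 6 at the X members, 3 at cel-mir-52 and 5 at cel-mir-51 and cel-mir-53, against a median of 6 in both. Within 5 kb the pooled list had 7 at the X members, 5 at cel-mir-51 and cel-mir-53 and 1 at cel-mir-52, against a median of 3, and replicate 1 had 4 at cel-mir-52.

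**Figure D3:**
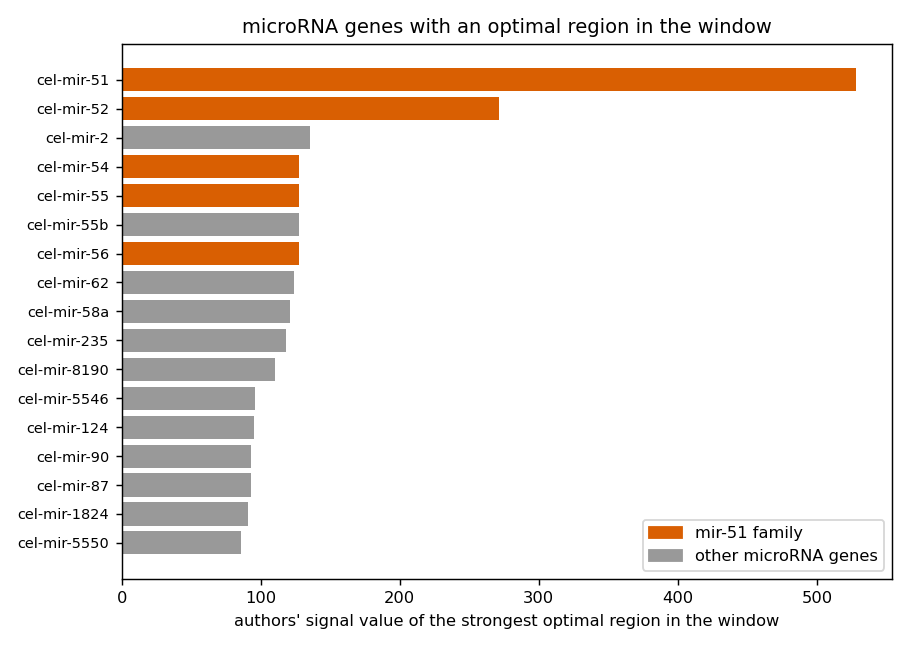
The authors' signal value of the strongest optimal region in the window of each of the 17 microRNA genes that have one, with the mir-51 family in orange and other genes in grey. cel-mir-51 (528) and cel-mir-52 (271) stand above the strongest other gene, cel-mir-2 (135), and the 3 X members, with a shared value of 128, lie next to cel-mir-2.

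In the order of microRNA genes by strongest optimal region, cel-mir-51 and cel-mir-52 came first and second. The value at cel-mir-51 was 3.91 times and that at cel-mir-52 2.01 times the value at cel-mir-2 (135, rank 222), the strongest gene outside the family. cel-mir-2 was in turn followed by the X cluster (128) with cel-mir-55b, then by cel-mir-62 (124, rank 282), cel-mir-58a (121, rank 302) and cel-mir-235 (118, rank 319). In the optimal list the X cluster therefore came after cel-mir-2 and before cel-mir-62. The summit counted for cel-mir-235 lay 1869 bp upstream of the hairpin, inside an annotated tRNA, snoRNA or snRNA gene. No other of the 12 genes outside the family had its strongest summit within 200 bp of such a gene. In replicate 1 alone the ranks were 315 at the X cluster, 261 at cel-mir-2, 298 at cel-mir-62, 178 at cel-mir-58a and 305 at cel-mir-235. In replicate 2 the ranks were 274 at the X cluster, 226 at cel-mir-2, 316 at cel-mir-62, 1038 at cel-mir-58a and 483 at cel-mir-235. cel-mir-2 was ahead of the X cluster in both replicates. cel-mir-62, cel-mir-58a and cel-mir-235 were ahead of it in replicate 1 and behind it in replicate 2. The same holds for cel-mir-8190, with rank 265 in replicate 1 and 1201 in replicate 2, and for cel-mir-124, with rank 291 in replicate 1 and 2964 in replicate 2. The remaining 7 genes outside the family had values from 86.1 (cel-mir-5550) to 110.3 (cel-mir-8190).

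The summit of the strongest region was within 250 bp of the 5′ end of the hairpin for 3 of the 5 members (cel-mir-51, cel-mir-52 and cel-mir-54), and for 3 of the 12 other microRNA genes. The median distance was 218 bp in the family and 450 bp in the others, and cel-mir-54, cel-mir-55 and cel-mir-56 share a summit. An annotated hairpin is not the start of the primary transcript, so these distances are not distances from a promoter.

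**Figure D4:**
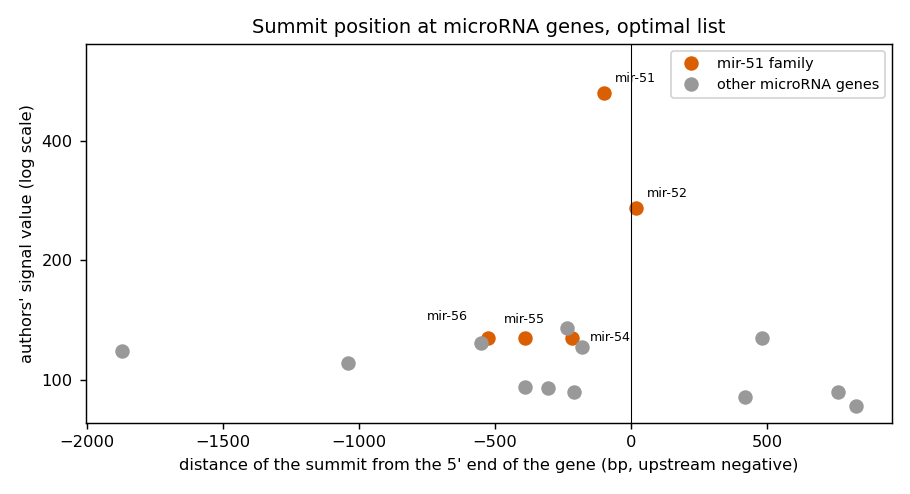
Distance in bp of the summit of the strongest optimal region from the 5′ end of the hairpin, with upstream negative, against the authors' signal value on a log axis, for 5 family members (orange) and 12 other microRNA genes (grey). The family spans from 525 bp upstream (cel-mir-56) to 19 bp downstream (cel-mir-52), and the other genes from 1869 bp upstream to 826 bp downstream.

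Letters of the E-box were present near some of the summits printed above. Within 50 bp, on both strands, CANNTG occurred at 2 of the 4 optimal summits, as CATATG at cel-mir-52 and CAGCTG on the cel-mir-56 side of the X cluster, and at 33.6% of all 912 optimal summits. Within 100 bp it occurred at all 4, and at 51.1% of all optimal summits. At cel-mir-52 the match lies inside the mature strand, starting at its base 9, just after the seed. cel-mir-53 carries CATTTG at the same base of its mature strand, away from its own summit, and cel-mir-51 carries CAGGTG in its hairpin outside the mature strand shown. The hairpins of cel-mir-54, cel-mir-55 and cel-mir-56 have none, and 69 of 255 other microRNA hairpins (27.1%) have CANNTG. The CA repeat, as TGTGTG on the strand shown, occurred within 50 bp at cel-mir-51 and on the cel-mir-54 side of the X cluster, and at 17.3% of all optimal summits. The GA repeat occurred on the cel-mir-54 side, and at 20.5% of all, and 2 times at the pooled summit of cel-mir-53. The GATA-type word TGATAA occurred at 0 of the 4, and at 2.19% of all optimal summits. These are matches of letters and not shown to be sites of a factor. The GC content within 50 bp of the summit ran from 40.6% at cel-mir-52 to 58.4% on the cel-mir-54 side, on both sides of the median of 52.5% over all optimal summits.

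The longest run of identical bases shared by any pair of the 5 regions was 17, between the regions at cel-mir-52 and cel-mir-53, and 8 or 9 in the other pairs. The handling of reads that map to several places was not stated.

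Genes of the microRNA machinery, and of pharynx attachment and epithelia, were read by the same window. In it, 5.72% of all protein-coding genes had an optimal region. The lists are short, were chosen with earlier results known and were not tested against that share. Of 8 genes of the microRNA machinery, 2 had an optimal region: ain-1, a GW182-type partner of Argonaute (141.9, rank 202), and nhl-2, a TRIM-NHL cofactor of microRNA silencing (97.7, rank 567). The Argonaute gene alg-1 had its strongest pooled region at rank 1025 (82.7) and alg-2 at rank 4783 (53.0). Of 11 genes of pharynx attachment and epithelia, 3 had one: the β-catenin gene hmp-2 (164, rank 144), the classical cadherin gene hmr-1 (110.3, rank 377) and the Scribble gene let-413 (94.02, rank 651). The region at hmr-1 is the one counted for cel-mir-8190 above. cdh-3, the Fat-like cadherin gene known as a target of the family in pharynx attachment, had none, and its strongest pooled region had a value of 49.7 and rank 5798. pha-4, the FoxA regulator of the pharynx, had rank 3777 (57.04). Windows of coding genes hold the gene body, which in hmr-1 is 58913 bp long, so these counts are not on the footing of the hairpins.

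Other microRNA families were read in the same way, beside the 4.71% of all microRNA genes outside the mir-51 family. At list sizes of 2 to 8 genes, counts of 0 or 1 do not set a family apart from that share. The mir-35 family, which acts in embryos, had 0 of 8. Its strongest pooled region, at rank 2701 with a value of 63.4, was shared by 7 of its genes, and that at cel-mir-42 had rank 4834 (52.8). The mir-58 family had 1 of 6, cel-mir-58a. cel-mir-80 of the same family had rank 1702 (72.04) and cel-mir-81 rank 2865 (62.3). Of the let-7 family 6 of 7 symbols were found, the missing symbol being that of cel-let-7 itself, which was not analysed here. Of those 6, 0 had an optimal region and 4 had a pooled region. cel-mir-48 and cel-mir-241 shared the same pooled region, with rank 2078 (68.2). Of the lin-4 family 0 of 2 had one, and cel-lin-4, with rank 978 (83.8), was nearer to the limit than cel-mir-53 with rank 1084 (81.7). Among 7 single conserved microRNAs, cel-mir-124 of sensory neurons had one (95.1, rank 620). cel-mir-71 had rank 1575 (73.5) and cel-mir-1 of muscle rank 3759 (57.1) in the pooled list.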

How the data were processed

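HLH-6 was measured by ChIP-seq in 2 biological replicates of tagged late embryos. The authors deposited region lists in the narrowPeak layout on ce11, per the README texts beside them: 1 per replicate and 1 pooled, each made from alignments and a control, and an optimal list made from these by IDR. Each region carries a score deposited by the authors as its signal value, and a −log10 q-value deposited by the authors that reaches 2.63 in the optimal list. For the aligner, the peak caller and the IDR cutoff, names and settings: not given in the sources used here. Lists on ce10 were not used.

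Regions were matched to Ensembl release 115 genes of WBcel235, the assembly of ce11, with Python 3.11.15, numpy 2.4.6 and pandas 2.3.3, and drawn with matplotlib 3.10.9. Ranks follow the signal value within a list, highest first. Mature strands and summit sequences were read from the NCBI genome. No test was made, since there is 1 group and the members and lists were chosen with earlier results of these data known. Genes named are the members, genes at their regions, the strongest 5 microRNA genes outside the family, and list members with an optimal region or, up to 2 per list, without (cdh-3 and pha-4, alg-1 and alg-2 among them). The ncRNA genes at cel-mir-52 are given by position only. The weakest other microRNA gene, cel-mir-5550, and cel-mir-8190 were named after their values were seen. Window and motif searches were tested on simulated data. Read depth is unknown, so no interval is given.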

Additional observations from a re-analysis of the deposited data

How the results depend on the processing

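The count of members with an optimal region was 5 in the narrow window of 1000 bp upstream to 200 bp downstream of the 5′ end. It was also 5 with the downstream limit set from the 5′ end, and by summit position. The strongest 456 optimal regions and the strongest pooled regions gave 5 as well, but could not have given another count. All 4 optimal regions at the members rank 378 or better, and the 912 strongest pooled regions are the optimal list. No optimal list was remade without a replicate. Among the 912 strongest regions of the replicate lists, 5 members had a region in replicate 1 and 6 in replicate 2. The count of other microRNA genes, 12, fell to 6 in the strongest 456 regions, where fewer regions are counted. Among the 912 strongest of a single replicate list it was 9 in replicate 1 and 10 in replicate 2. It was 10 to 11 under the other settings, apart from the strongest pooled regions, which repeat the 12 by construction. The E-box count was 2 of 4 optimal summits within 50 bp and 4 within 100 bp, a longer window. Ranks as a share of list length change with the list's length by construction. At 5 kb in place of 10 kb, the density of pooled summits relative to the genome mean was 1.65 at cel-mir-51 and cel-mir-53 (0.831 at 10 kb), 0.331 at cel-mir-52 (0.166) and 2.32 at the X members (1.33 at cel-mir-56 at 10 kb). No paired analysis was possible because there is a single group. Without reads or control samples, a region missing from a list is not shown to lack signal.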
